A study of Mus musculus with 4 samples.

Results

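The integrin and tetraspanin genes of day 3 Flk-1-positive mesoderm are described here on 4 Affymetrix arrays. They are the genes whose symbol in the platform annotation begins with Itga, Itgb or Tspan in the usual family form, together with Cd9, Cd37, Cd53, Cd63, Cd82 and Cd151, each read from a probe set that carries exactly 1 symbol. This gave 43 of 14860 named genes, 20 integrins and 23 tetraspanins, with 1 probe set each. Itga1, Itga4 and Itgax share their probe sets with another gene's symbol and were not analysed here, nor were Cd63, Itga10, Itgad and Itgb8.

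Every array holds RNA of cells sorted for Flk-1, the VEGF receptor encoded by Kdr, from mouse embryonic stem (ES) cells on day 3 of differentiation. There was 1 array for each of 4 groups: the inducible line iER71 given doxycycline at 1 mg/ml between day 2 and day 3, the same line without doxycycline, Er71-/- cells, and wild-type cells. The labels give the genotype of both iER71 cultures as wild type and say nothing of clones, pooling or age beyond day 3. ER71, the product of Etv2, is a transcription factor of the ETS family. The 2 iER71 arrays carry conflicting labels. The one that received doxycycline, by its source and characteristics, is titled control, and the one that did not is titled ER71 overexpressed. The arrays are named here by doxycycline, and the sign of every difference within this pair turns if the titles are right.

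Integrins are receptors built of an alpha and a beta subunit that span the cell membrane, bind matrix proteins or partner cells outside it and connect to actin inside. Which alpha subunit joins the beta subunit sets most of the ligand choice: collagen, laminin, or proteins such as fibronectin that carry the RGD peptide. Tetraspanins are small proteins that cross the membrane repeatedly and gather integrins, proteases and receptors into patches of membrane, and both families serve cell movement and vessel formation.

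Values are log2 of the deposited intensity. With 1 array per group there is no replicate, so no value below has an error or a test, and a difference was called by size alone, at 2-fold (a difference of 1 on the log2 scale) or more. A gene counted as detected where at least 1 of its values was no lower than the overall median of the deposited data (log2 6.16), since the background level is unknown. Median intensities lay between 71.3 and 72.3 on the 4 arrays, and Pearson's r between arrays over all probe sets was 0.967 to 0.979. In bulk RNA, fewer cells of a type and less RNA per cell cannot be told apart. Etv2 was at 10.50 with doxycycline and 10.05 without it, 1.37-fold higher on the array labelled with doxycycline. With 1 array each, that difference does not settle which iER71 label is right. In Er71-deficient cells Etv2 was at 8.89, against 9.39 in wild type. The position of its probes against the deletion was not known here, which makes it a poor test of the genotype label. Kdr lay between 9.67 and 10.19 on the 4 arrays.

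Of the 43 members, 27 were detected, 10 integrins and 17 tetraspanins. The other 16 stayed below the detection level on every array. Among these were the leukocyte integrin subunits Itgal, Itgam and Itgae and the beta subunit of most leukocyte integrins, Itgb2, whose log2 intensity was 5.44 with doxycycline, 5.68 without it, and 5.38 in Er71-deficient cells, against 5.62 in wild type. In addition, 11 of the 43 members (25.6%) had exactly the same deposited value on all 4 arrays, where 10.9% of all 14860 genes did, and so carry nothing about any comparison. They are Cd37, Cd53, Itga11, Itgae, Itgal, Itgam, Itgb4, Itgb6, Itgb7, Tspan1 and Tspan11. Cd37 and Tspan11 were the 2 of them above the detection level, and they show no difference of any kind. Of the 27 detected members, 1 (Itga2) reached the detection level on 1 array alone, the array with doxycycline, and so had to differ to be counted, and counts over detected members describe them without bearing on the families as a whole.

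In the iER71 pair, the members past 2-fold with doxycycline (the array titled control) numbered 2 of 27 detected, Itga2 and Tspan18, where 2.41% of 8843 detected genes passed. At least 2-fold lower was 1 member, Itga8, beside 1.23% of all detected genes. In the loss pair, 3 members were at least 2-fold lower in Er71-deficient cells than in wild type, Tspan18, Tspan8 and Tspan12, beside 1.58% of all detected genes, and no member was higher by that size, beside 0.43%. At a looser 1.5-fold, 4 members were higher with doxycycline (6.31% of all detected genes), the further ones being Tspan8 and Itga9, and 3 were lower (3.17% of all), with Itgb5 and Tspan12 beside Itga8. At that size 1 member, Itga8, was higher in Er71-deficient cells (1.54% of all) and 6 were lower (4.46% of all), with Cd9, Tspan4 and Itga2b beside the 3 already named. Counts this small are given as descriptions.

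Itga2 encodes the alpha subunit of the collagen receptor that forms with Itgb1, known from platelets, epithelium and some vessels. Its log2 intensity was 7.45 with doxycycline and 4.65 without it, and 4.39 in Er71-deficient cells, against 4.65 in wild type. It was above the detection level on the doxycycline array alone. As deposited, that value was 6.96-fold higher than without doxycycline, but the size of this fold is uncertain because the value without doxycycline lay below the detection level. The values without doxycycline and in wild type were identical as deposited. Measured against the detection level instead of the dim array, the doxycycline value was 2.44-fold higher. In the loss pair it lay below that level on both arrays (difference of -0.27).

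Tspan18 is a tetraspanin of endothelial cells, where work in human cells ties it to the calcium channel Orai1. It was at 9.01 with doxycycline and 7.23 without it, a 3.43-fold difference that took rank 41 among detected genes. It was at 4.30 in Er71-deficient cells, against 7.26 in wild type, 7.79-fold lower in the deficient cells. The untreated iER71 and wild-type values were nearly equal, the doxycycline value lay above both and the Er71-deficient value below both. Because the Er71-deficient value was under the detection level, the size of that fold is uncertain; with values under that level raised to it, the fold is 2.14. Tspan18 was the single member past 2-fold in both pairs.

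Tspan8, studied mostly in human and rat tumour cells for its part in migration and extracellular vesicles, was at 7.54 with doxycycline and 6.79 without it, a difference of 0.75. It was at 4.76 in Er71-deficient cells, against 7.66 in wild type, 7.44-fold lower in the deficient cells as deposited and 2.82-fold with low values raised to the detection level. The Er71-deficient array was thus the low one, and the doxycycline and wild-type arrays lay close together with untreated iER71 cells below them. Tspan12, which in the mouse retina strengthens Norrin signalling through Fzd4, followed another order. It was at 8.79 with doxycycline and 9.43 without it, and at 8.66 in Er71-deficient cells, against 10.07 in wild type. Wild type was the high array for Tspan12, 2.66-fold above the deficient array, and all its values were well over the detection level. Unlike Tspan18 and Tspan8, it was lower with doxycycline, by 0.65 on the log2 scale. Its receptor partner Fzd4 was at 7.66 with doxycycline and 7.16 without it, and at 7.27 in Er71-deficient cells, against 8.22 in wild type, so wild type was the high array here too; Fzd4 was looked up after the values of Tspan12 were seen.

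Itga8 encodes the alpha subunit of an RGD receptor that forms with Itgb1 on mesenchymal and smooth muscle cells. Its order was the opposite: 5.22 with doxycycline and 6.52 without it, 2.47-fold lower with doxycycline, and 6.93 in Er71-deficient cells, against 5.95 in wild type, 1.96-fold higher in the deficient cells and just under the 2-fold call. The arrays with doxycycline and of wild type lay below the detection level, and with low values raised to it the differences were -0.36 and 0.76, so that neither passed 2-fold.

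**Figure D1:**
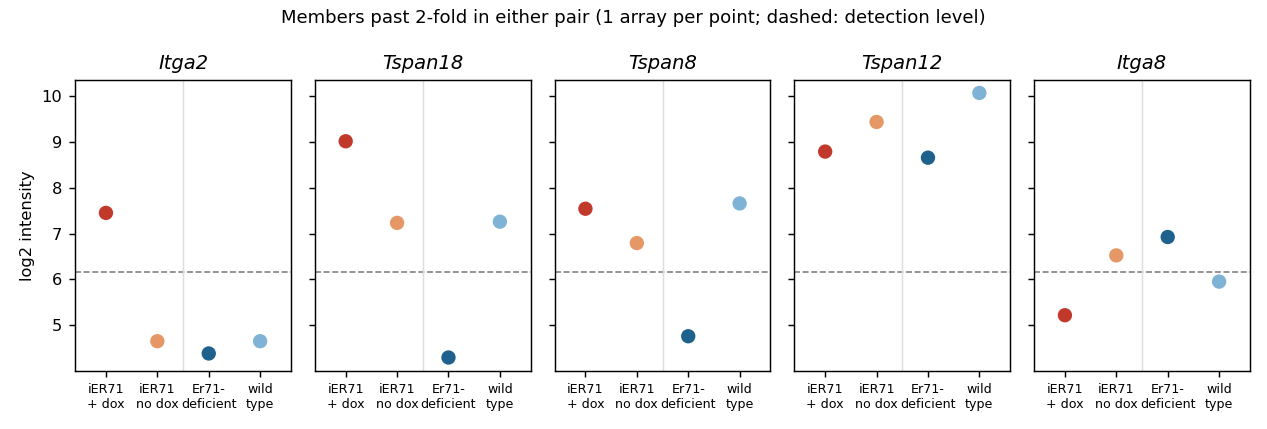
Log2 intensity (y axis) of the 5 members past 2-fold in either pair, on each of the 4 arrays (x axis, 1 point per array, no replicate); the dashed line is the detection level of 6.16. Itga2 is above the line on the doxycycline array alone, Tspan18 and Tspan8 are below it on the Er71-deficient array alone, Tspan12 is highest in wild type and Itga8 is above the line without doxycycline and in Er71-deficient cells.

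The promoters of these members are shown because the members were called in comparisons of an ETS factor, and ETS proteins bind around the letters GGAA. RefSeq sequences of the build GRCm38.p6 were matched by symbol for 35 of the 43 members, with 47 promoters between them; Tspan18 was not matched. Each line gives the 250 bases before the annotated start, 5′ to 3′ on the gene's strand, with GGAA and its complement TTCC in capitals.
Itga2, chr13:114932101-114932350, minus strand: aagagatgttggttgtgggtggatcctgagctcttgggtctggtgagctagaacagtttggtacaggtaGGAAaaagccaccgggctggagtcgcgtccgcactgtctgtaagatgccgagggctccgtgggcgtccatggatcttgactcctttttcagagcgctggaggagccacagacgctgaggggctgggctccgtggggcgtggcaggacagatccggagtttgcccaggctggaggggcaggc
Itga8, chr2:12301945-12302194, minus strand: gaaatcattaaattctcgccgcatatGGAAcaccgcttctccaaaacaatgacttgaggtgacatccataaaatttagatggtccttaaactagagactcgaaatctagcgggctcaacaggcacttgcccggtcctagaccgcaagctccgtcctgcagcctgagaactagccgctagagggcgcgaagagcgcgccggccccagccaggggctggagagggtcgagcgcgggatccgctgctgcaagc
Tspan8, chr10:115817034-115817283, plus strand: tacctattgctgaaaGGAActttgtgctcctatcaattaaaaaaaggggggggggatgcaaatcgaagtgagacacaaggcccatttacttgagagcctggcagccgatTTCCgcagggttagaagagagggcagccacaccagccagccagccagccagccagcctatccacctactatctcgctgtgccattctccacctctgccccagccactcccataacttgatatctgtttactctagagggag
Tspan12, chr6:21852534-21852783, minus strand: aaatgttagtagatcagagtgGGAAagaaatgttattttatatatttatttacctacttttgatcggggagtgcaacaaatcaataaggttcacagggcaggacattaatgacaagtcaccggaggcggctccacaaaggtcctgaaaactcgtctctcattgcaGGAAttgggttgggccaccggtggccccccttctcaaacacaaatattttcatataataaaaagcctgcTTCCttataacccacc
The promoters of Itga2 and Itga8 held 1 such match each, Tspan8 held 2 and Tspan12 held 3. At least 1 match is present in 93.4% of the 32851 promoters of the same length, and at least 3 in 54.7%, so these letters alone set no promoter apart. The longer letters CCGGAA and AGGAAG, searched on both strands and able to overlap the shorter ones, were present in 20 of the 47 member promoters (42.6%) and in 38.2% of all promoters. Of the promoters printed, the one of Tspan12 held such a match, CTTCCT. A match is a string of letters and not a shown binding site, and its absence speaks only of this window.

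Among the remaining alpha subunits, no difference reached 2-fold. Itga9 pairs with Itgb1 and is needed for lymphatic valves in the mouse. It was at 8.02 with doxycycline and 7.43 without it, and at 7.15 in Er71-deficient cells, against 7.43 in wild type, so the doxycycline array was high and the deficient array low. The laminin receptor subunit Itga3 had the same order, at 6.66 with doxycycline and 6.20 without it, and at 5.92 in Er71-deficient cells, against 6.20 in wild type. Itga6, another laminin receptor subunit, was instead lowest with doxycycline (8.31, against 8.36 without it) and stood at 8.59 in Er71-deficient cells, against 8.79 in wild type. Itga2b, the platelet fibrinogen receptor subunit that also marks the first blood progenitors, was at 6.89 with doxycycline and 6.53 without it, and at 6.29 in Er71-deficient cells, against 6.93 in wild type, 1.56-fold lower in the deficient cells. Its partner Itgb3 stayed below the detection level on all arrays (5.63 to 6.11). The fibronectin receptor subunit Itga5 differed by 0.17 with doxycycline and was identical as deposited in Er71-deficient and wild-type cells, and Itgav, which joins several beta subunits, differed by -0.15 and -0.29 in the 2 pairs.

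Of 7 measured beta subunits, Itgb1 and Itgb5 were detected. Itgb1, the shared partner of Itga2, Itga3, Itga5, Itga6, Itga8 and Itga9, was nearly level at 11.34 with doxycycline and 11.28 without it, and 11.25 in Er71-deficient cells, against 11.30 in wild type. Itga2 differed by 2.80 and Itga8 by -1.30 between the arrays on which Itgb1 differed by 0.06. Itgb5, which joins Itgav to bind vitronectin, was at 6.58 with doxycycline and 7.44 without it, 0.86 lower with doxycycline, and at 7.69 in Er71-deficient cells, against 7.50 in wild type. Itgb5, Itga8 and the tetraspanin Tspan31 were the 3 detected members (11.1%) with the doxycycline array lowest and the Er71-deficient array highest of the 4, an order that 9.17% of all detected genes had. For Itga8 both the doxycycline and the wild-type value lay below the detection level.

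**Figure D2:**
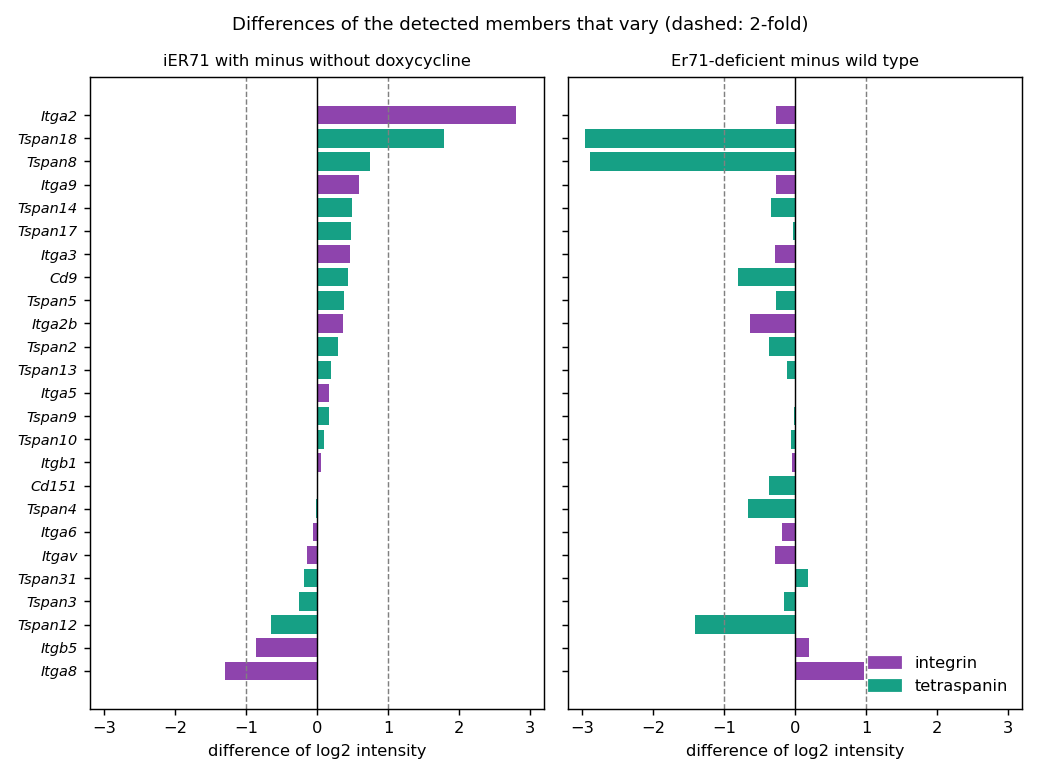
Difference of log2 intensity (x axes) for the 25 detected members that do not have 1 value on all arrays, ordered by the iER71 pair (left) with the same genes in the loss pair (right); purple bars are integrins, green bars tetraspanins, dashed lines 2-fold, and each bar is 1 array minus 1 array. The longest left bars are Itga2 at 2.80 and Tspan18 at 1.78, and the longest right bars are Tspan18 at -2.96 and Tspan8 at -2.90.

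The TspanC8 tetraspanins carry the protease Adam10 to the cell surface, where it cleaves Notch receptors and VE-cadherin among its substrates. All 6 were measured and 4 were detected. None passed 2-fold. The 4 detected genes, Tspan5, Tspan14, Tspan17 and Tspan10, had higher values with doxycycline, as 44.6% of all detected genes had, and lower values in Er71-deficient cells than in wild type, as 52.9% had. For Tspan10 both values of the loss pair lay below the detection level, and Tspan15 and Tspan33 lay below it on every array. Tspan5 was at 9.26 with doxycycline and 8.88 without it, and at 8.15 in Er71-deficient cells, against 8.42 in wild type. Tspan14 was at 7.88 with doxycycline and 7.38 without it, and at 6.94 in Er71-deficient cells, against 7.29 in wild type. For both, the doxycycline array was highest and the deficient array lowest. Tspan17 differed by 0.48 with doxycycline and by -0.03 in Er71-deficient cells, and Tspan10 by 0.09 and -0.06. Adam10 itself was at 9.35 with doxycycline and 8.78 without it, 1.48-fold higher, and at 8.18 in Er71-deficient cells, against 8.80 in wild type, 1.54-fold lower in the deficient cells. The median difference of the 4 detected TspanC8 genes was 0.43 in the iER71 pair, where all detected genes had 0.00, and -0.17 in the loss pair, where they had -0.01. Without replicates, differences of this size have no error to be read against; in the pair of untreated iER71 and wild-type cells Tspan5 alone differed by 0.46.

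**Figure D3:**
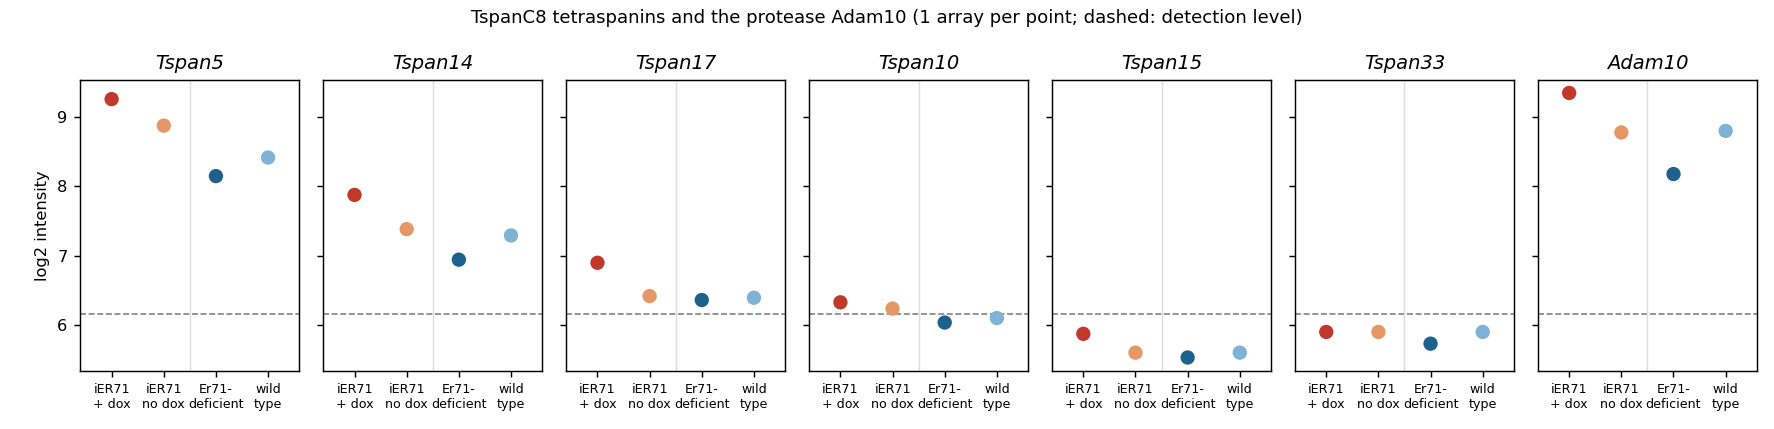
Log2 intensity (y axis) of the 6 TspanC8 tetraspanins and Adam10 on each of the 4 arrays (x axis, 1 point per array, no replicate); the dashed line is the detection level. Tspan5, Tspan14, Tspan17 and Adam10 lie above the line on every array, highest with doxycycline and lowest in Er71-deficient cells, Tspan10 crosses the line, and Tspan15 and Tspan33 lie below it.

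Of the CD-named tetraspanins, Cd9, a close partner of integrins that mouse eggs need to fuse with sperm, was at 8.79 with doxycycline and 8.35 without it, and at 7.84 in Er71-deficient cells, against 8.65 in wild type. The deficient array was low, 1.75-fold under wild type. Cd151, which binds the laminin receptors, had the same deposited value with and without doxycycline (7.87) and stood at 7.76 in Er71-deficient cells, against 8.14 in wild type. Cd81, the nearest relative of Cd9 and outside the rule, was at 10.62 with doxycycline and 10.12 without it, and at 9.73 in Er71-deficient cells, against 10.12 in wild type, the order seen for Cd9 in both pairs. Cd82 stayed below the detection level (5.29 to 5.80). It is the next coding gene to Tspan18 in the reference annotation, and at that signal its differences cannot be read.

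Among the other tetraspanins Tspan4, known from the migrasomes that moving cells leave behind, was at 6.50 with doxycycline and 6.51 without it, and at 6.59 in Er71-deficient cells, against 7.27 in wild type. As for Tspan12, wild type was the high array. Tspan2 was also highest in wild type, at 8.01, and lay between 7.44 and 7.73 on the other arrays. Tspan3, Tspan9, Tspan13 and Tspan31 differed by between -0.26 and 0.20 in both pairs.

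Over the 27 detected members, 16 were higher with doxycycline (59.3%, beside 44.6% of all detected genes), 8 lower (29.6% beside 39.1%) and 3 equal, with a median difference of 0.17 beside 0.00 for all detected genes. In Er71-deficient cells 3 were higher than in wild type (11.1% beside 30.6%), 21 lower (77.8% beside 52.9%) and 3 equal, with a median of -0.27 beside -0.01. Itga2 and Tspan10 are among the 21 with both values of that pair below the detection level, and with low values raised to that level 19 were lower. Over all 43 members, detected or not, 18 were higher with doxycycline, 11 lower and 14 equal, where 37.0% of all genes, detected or not, were higher. In Er71-deficient cells 3 of the 43 were higher, 28 lower and 12 equal, where 47.1% of all genes were lower. Higher with doxycycline and lower in Er71-deficient cells, at any size, were 15 of the 27 (55.6%), beside 27.8% of all detected genes. By the titles, in which the array without doxycycline is the overexpressing one, the same count is 5 of 27 (18.5%), beside 18.4% of all detected genes. Of the tetraspanins alone, 14 of 17 were lower in Er71-deficient cells, 1 higher and 2 equal, where 52.9% of all detected genes were lower. The doxycycline array was highest and the Er71-deficient array lowest of all 4 for 12 of the 27 members (44.4%), beside 15.6% of all detected genes; this order was looked for after the values were seen. By the titles, with the array without doxycycline highest and the Er71-deficient array lowest, it held for 0 of the 27, beside 4.2% of all detected genes. The 12 are Cd9, Itga2, Itga3, Itga9, Itgb1, Tspan5, Tspan9, Tspan10, Tspan13, Tspan14, Tspan17 and Tspan18, and for Itgb1 and Tspan9 the steps were small. With values below the detection level raised to it, the count was 10, without Itga2 and Tspan10. The pairs share no array. Across the 27 members their differences correlated with Spearman's rho of -0.44 and Pearson's r of -0.46, beside -0.26 and -0.41 over 8843 genes; genes on the same arrays are not independent, and by the titles these signs turn. Without Tspan18, Tspan8 and Itga2, rho over the other 24 members was -0.31 and r was -0.36, the latter weaker than the -0.41 over all detected genes.

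**Figure D4:**
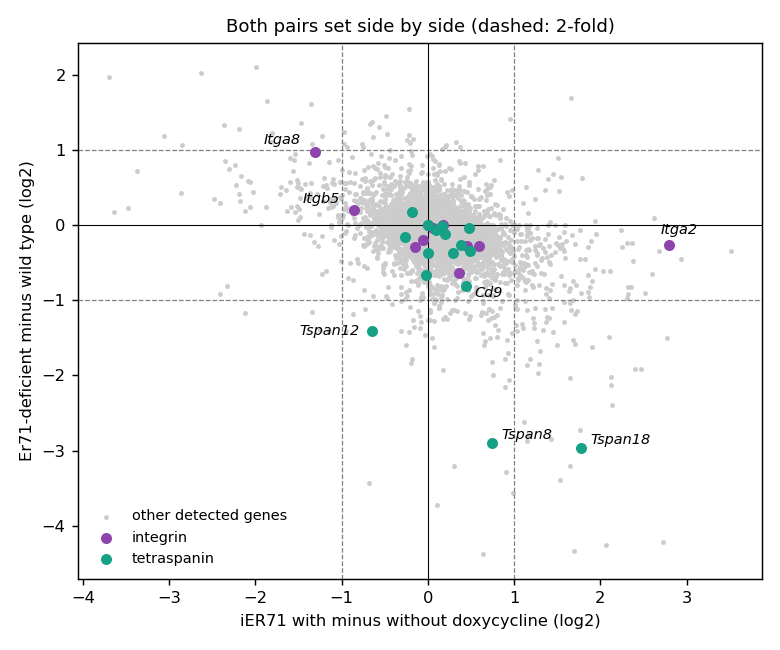
Difference in the iER71 pair (x axis, log2) against difference in the loss pair (y axis, log2) for 8843 detected genes, with detected integrins in purple and tetraspanins in green; each point is 1 gene, other genes are grey, and dashed lines mark 2-fold. Tspan18 is the member beyond 2-fold on both axes, at 1.78 and -2.96, while Itga2 is far out on the x axis alone.

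The inducible line and the wild-type line also differed without any treatment. With 1 array of each line, line and array cannot be told apart, so this pair is no measure of spread between replicates. Etv2 itself was 0.66 higher in untreated iER71 cells than in wild type. For untreated iER71 minus wild type, none of the 27 members reached 2-fold, beside 0.441% of detected genes higher and 0.554% lower. At 1.5-fold none was higher (1.67% of all) and 3 were lower (2.47% of all). These 3 were Tspan8 at -0.86, Tspan4 at -0.75 and Tspan12 at -0.63, and the median was -0.01. This pair shares the wild-type array with the loss pair and the untreated array with the iER71 pair, so its values are set beside theirs only as a description. Wild type was the brightest of the 4 arrays for Tspan4 and Tspan12, so their values in the loss pair also rest on a wild-type array that was high against every other array. For Tspan8 wild type (7.66) was only narrowly above the doxycycline array (7.54), and the Er71-deficient array (4.76) was the low one.

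Endothelial markers differed along with these members. All 8 genes of the endothelial list (Cdh5, Pecam1, Tek, Tie1, Emcn, Cldn5, Erg and Sox17, the last also a marker of endoderm) passed 2-fold upward with doxycycline (2.41% of all detected genes did), with a median difference of 1.84. All 8 were lower in Er71-deficient cells, 4 of them by 2-fold (1.58% of all detected genes were), with a median of -1.80. Emcn and Cldn5 were above the detection level on the doxycycline array alone. Their summed intensity was 5897 with doxycycline and 1442 without it, and 322 in Er71-deficient cells, against 2055 in wild type. The Er71-deficient array was lowest for this sum, as it was for Tspan18 and Tspan8, and the doxycycline array was highest, as for Tspan18 and Itga2. In Er71-deficient cells Cdh5 (5.08), Pecam1 (5.36), Tek (4.62), Tie1 (5.92), Emcn (4.32), Cldn5 (5.19), Erg (5.52) and Sox17 (5.89) all lay below the detection level. The part of endothelial cells in the differences of the integrins and tetraspanins was not tested.

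Other marker lists differed between the same arrays. Of 6 measured genes of Flk-1 mesoderm, 4 were at least 2-fold lower with doxycycline (1.23% of all detected genes were), among them Pdgfra (-2.37) and Mixl1 (-2.03), with a median of -1.53. In Er71-deficient cells 4 of these 6 were higher than in wild type, 2 of them by 2-fold (0.43% of all detected genes were), with a median of 0.51. Their summed intensity was 3350 with doxycycline and 4839 without it, and 4156 in Er71-deficient cells, against 3448 in wild type. All 4 cardiac markers were lower with doxycycline, with a median of -0.92, but Tbx5 lay below the detection level on every array. The 3 detected ones had a median of -0.87. In Er71-deficient cells 1 of these 3 was higher and 2 were lower. As deposited, the largest cardiac differences were those of the atrial myosin gene Myl7, -1.99 in the iER71 pair and 2.10 in the loss pair. Its doxycycline value lay below the detection level, and raised to that level its difference in the iER71 pair was -0.84. The cardiac sum was 210 with doxycycline and 419 without it, and 751 in Er71-deficient cells, against 521 in wild type. Itga8 and Itgb5 were lower with doxycycline and higher in Er71-deficient cells. Pdgfra, Mesp1, Mixl1 and Eomes of the mesoderm list and Myl7 of the cardiac list had these directions too. Etv2 and Kdr of the mesoderm list had the opposite ones, and the cardiac genes Nkx2-5 and Tnnt2 were lower in both pairs. The part of mesodermal or cardiac cells in the differences of Itga8 and Itgb5 was not tested.

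Blood and platelet markers, with 4 of 8 measured genes detected, summed to 437 with doxycycline and 428 without it, and to 378 in Er71-deficient cells, against 916 in wild type. The wild-type sum was carried by the globin gene Hbb-y, whose intensity was 39.0 in Er71-deficient cells, against 420 in wild type. Of the 4 detected, Hbb-y (-0.69), Hba-x (-0.42) and Gata1 (-0.13) were lower with doxycycline and the platelet gene Pf4 was higher. Hbb-y and Gata1 reached the detection level in wild type alone, so their differences between the iER71 arrays cannot be read. Pf4 was at 6.42 with doxycycline and 4.65 without it, and at 4.80 in Er71-deficient cells, against 5.25 in wild type, above the detection level on the doxycycline array alone, as Itga2 was. The fibroblast feeder list summed to 531 with doxycycline and 443 without it, and to 412 in Er71-deficient cells, against 461 in wild type. Its sum with doxycycline was raised by Thy1 alone, at 0.91, while Col1a1, Col1a2 and Lum were lower and the median was -0.03. Markers of undifferentiated ES cells summed to 871 with doxycycline and 688 without it, and to 713 in Er71-deficient cells, against 421 in wild type, and Nanog was 1.21 higher in the deficient cells. The endoderm list summed to 318 with doxycycline and 211 without it, and to 176 in Er71-deficient cells, against 194 in wild type, with Sox17, shared with the endothelial list, as its 1 gene past 2-fold. The part of these cell types in the members' differences was not tested.

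The genes around the receptors were read from lists of matrix and cell-surface ligands, of the proteins that bind integrin tails, and of tetraspanin partners. Of 17 detected ligand genes, 3 passed 2-fold upward with doxycycline (2.41% of all detected genes did) and 1 downward (1.23% of all). Icam2, an endothelial ligand of leukocyte integrins, was at 8.78 with doxycycline and 6.92 without it, and at 6.09 in Er71-deficient cells, against 6.98 in wild type. The basement membrane gene Nid1 was at 8.71 with doxycycline and 7.46 without it, and at 6.61 in Er71-deficient cells, against 7.72 in wild type. It passed 2-fold in both pairs and was the 1 detected ligand gene that did so in the loss pair, beside 1.58% of all detected genes lower. Edil3, an RGD protein of embryonic vessels, was at 6.69 with doxycycline and 5.25 without it, and at 4.81 in Er71-deficient cells, against 5.60 in wild type. It was above the detection level on the doxycycline array alone, and against that level its difference was 0.53, under 2-fold. Tgfb2, of the growth factors held in latent complexes that some integrins open, was at 6.47 with doxycycline and 8.80 without it, 5.02-fold lower with doxycycline, and at 6.03 in Er71-deficient cells, against 6.83 in wild type. The untreated iER71 array was the high one for Tgfb2, 3.90-fold above wild type, and the Er71-deficient value lay below the detection level. Among genes of collagens and fibronectin, Col1a1 differed by -0.23 and Col4a1 by 0.38 in the iER71 pair, and Fn1, the ligand of Itga5, by -0.32. Of 16 detected genes for proteins at the integrin tail, none passed 2-fold in either pair. The largest differences were 0.64 for the talin gene Tln1 and 0.56 for Parva with doxycycline, and -0.63 for Parva in Er71-deficient cells. Of 9 detected tetraspanin partners and relatives, 1 passed 2-fold, downward with doxycycline, beside 1.23% of all detected genes. This was the immunoglobulin-family gene Emb, at 9.80 with doxycycline and 10.84 without it, and at 11.74 in Er71-deficient cells, against 10.88 in wild type.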

How the data were processed

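Flk-1-positive cells of 4 groups were each profiled on 1 Affymetrix array. The authors deposited 1 linear intensity per probe set and array (23332 probe sets), already summarised and normalized; RMA, Affymetrix Expression Console and mm8 are named in the submitters' processing notes, and no version or between-array step is given in the sources used here. Log2 was taken of the intensity (Python 3.11.15, pandas 2.3.3). Genes were named from the 14996 probe sets with 1 symbol in the platform annotation, the brightest per gene, and all 43 member symbols were the same in the RefSeq gene table. Coordinates belong to RefSeq's GRCm38.p6 and not to the arrays. The arrays of the inducible line were grouped by doxycycline.

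The rule named each member past 2-fold in either pair, Etv2 and Kdr, the rest by role, and past-2-fold genes of the 3 partner lists; further genes are named as examples. Members and lists were chosen with earlier results of these data known. Calling by size was tried on simulated data with added differences larger than the call, so their recovery was largely set in advance. False calls and values near background were not examined, so the simulation does not show how reliable the calls are here. The number of arrays limits the precision.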

Additional observations from a re-analysis of the deposited data

How the results depend on the processing

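Of 10 differences of the 5 members past 2-fold (5 in each pair), each kept its direction and its side of 2-fold under median centring and quantile normalization. The deposited values were already normalized, with array medians between 71.3 and 72.3. Both choices therefore moved the differences little and are weak checks. The mean of probe sets could not change them, because each member has 1 probe set. With an offset of 32, 9 kept both and Itga8 in the iER71 pair was -0.84. Values below the detection level were also raised to it, a choice made after the data were seen. The exceptions were then Itga8 in the iER71 pair, at -0.36, and Itga2 in the loss pair, whose difference became 0. The count of members lower with doxycycline was then 0 in both cases, and the median in the loss pair with raised values was -0.16. With the stricter filter, 17 members were left, 1 of them higher and 0 lower with doxycycline. With no filter the medians were 0 in the iER71 pair and -0.12 in the loss pair. At 1.5-fold in place of 2-fold, 4 members were higher and 3 lower with doxycycline, 1 higher and 6 lower in Er71-deficient cells, and 3 lower in untreated iER71 cells than in wild type (the last chosen after the data were seen). With the sign as titled, 1 was higher and 2 lower, and the median was -0.17. By the titles 8 members were higher in the iER71 pair at any size and 5 were also lower in Er71-deficient cells. The array titled as overexpressing was highest and the deficient array lowest for 0 of them. By doxycycline these counts were 16, 15 and 12. With the stricter filter, still by doxycycline, they were 10, 9 and 7 of 17, beside 50.0%, 32.2% and 17.8% of all genes past that filter. These alternatives were chosen after the data were seen. The cause was not tested beyond what each choice does to the values. Signal near an unknown background limits Itga2, Itga8, Tspan8 and Tspan18. No paired analysis was possible because each group has 1 array.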

Other observations

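Some genes named after integrins or tetraspanins lie outside both families. Itgb3bp, whose product acts at the centromere, was at 6.48 with doxycycline and 6.66 without it, and at 6.32 in Er71-deficient cells, against 6.48 in wild type. Of the L6 family, which shares the membrane layout of tetraspanins without belonging to them, Tm4sf1, a gene of endothelial cells, was below the detection level on every array (4.48 with doxycycline and 4.20 without it, 4.18 in Er71-deficient cells, against 4.20 in wild type). Stim1, the calcium sensor that works with Orai1, was at 6.30 with doxycycline and 5.85 without it, and at 5.64 in Er71-deficient cells, against 5.83 in wild type, while Orai1 differed by 0.09 in the iER71 pair and was identical as deposited in the loss pair. These genes were looked up after the values of Tspan18 were seen.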
